A study of Mus musculus with 11 samples.

Results

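The Toll-like receptors Tlr1, Tlr2, Tlr4, Tlr6, Tlr7, Tlr8, Tlr9 and Tlr13, the co-receptor Cd14 and the adaptor Myd88 were followed by gene symbol across RNA-seq libraries of mouse bone marrow. These 10 genes were picked by name from the 51912 genes in the count table, and all 10 were among the 15703 genes that passed the filter on low counts. The study asked whether the order in which mutant CSF3R (the receptor for granulocyte colony stimulating factor) and mutant CEBPA (a myeloid transcription factor) enter a cell alters its gene expression. The cells behind the 11 libraries were sorted as lineage-negative (no surface antigen of a mature lineage) and positive for both vector reporters (GFP and RFP). A culture without cytokines followed the sort, so the gate describes the cells that entered the culture, and RNA was taken after it.

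The marrow came from C57BL/6 mice that express a tamoxifen-activated Cre recombinase (ERT2-Cre) from the Rosa26 locus, so every group carried the Cre, and after the sort every group spent 48 h in that culture with 4-hydroxytamoxifen. Each cell received a constitutive retroviral vector (MIG, marked by GFP) and a Cre-inducible one (idsRed, marked by a red protein). CSF3R-only cells (n = 4, replicates A to D) carried CSF3R T618I in the constitutive vector and an empty inducible vector. CSF3R-first cells (n = 3, replicates A to C) carried CSF3R T618I constitutively and CEBPA V314VW, a C-terminal mutant, in the inducible vector. CEBPA-first cells (n = 4, replicates A to D) carried CEBPA V314VW constitutively and CSF3R T618I in the inducible vector. The order of the oncogenes thus went with the vector that carried each and with how long each was expressed. These cannot be told apart here, though the paper reports that CEBPA expression from both vectors was equivalent. The oncogenes were expressed from retroviral vectors beside the intact mouse genes, which limits the groups as models of an endogenous mutation. No group carried CEBPA V314VW alone, and no untransduced library entered the comparisons. Nothing in the labels ties replicates to separate animals, so p-values measure the spread between these samples, which may be technical.

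Toll-like receptors are membrane proteins of innate immune cells that bind microbial products through leucine-rich repeats and signal through a cytoplasmic TIR domain. Tlr1, Tlr2, Tlr4 and Tlr6 act at the cell surface, where Tlr2 pairs with Tlr1 or Tlr6 to bind bacterial lipopeptides and Tlr4 binds lipopolysaccharide handed over by Cd14. Tlr7, Tlr8, Tlr9 and Tlr13 sense nucleic acids in endosomes. All of these receptors can signal through Myd88, which recruits IRAK kinases and leads to activation of NF-kB. In the marrow, many of them are known from monocytes, macrophages and neutrophils, though not from these cells alone.

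Total counts per library were 47905747 to 72268346, and 3 counts corresponded to 0.0383 to 0.0648 CPM (read numbers relative to library size after TMM scaling). No pair of replicates agreed within sampling noise: the chi-square of their counts, divided by its degrees of freedom, was 9.11 to 99.1. The highest values were those of CSF3R-first replicate A, which differed from replicates B and C by 99.1 and 74.5, against 22.2 between B and C. Each CSF3R-first result is therefore given with and without this library where its call changes. Mouse Cebpa was at 87.2 ± 6.98, 131 ± 10.4 and 167 ± 6.12 CPM (SD, n = 4, 3 and 4) in the CSF3R-only, the CSF3R-first and the CEBPA-first group, and Csf3r was at 846 ± 94.9, 516 ± 118 and 154 ± 16.1 CPM; reads of the human vector genes can align to the mouse genes in part.

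Transcripts of all 10 genes were lowest in CEBPA-first and highest in CSF3R-only by group mean, with CSF3R-first in between. In CEBPA-first against CSF3R-only, 10 of 10 were lower at an adjusted p below 0.05 (edgeR's quasi-likelihood test, adjusted by Benjamini-Hochberg over all genes tested), where 36.6% of all genes tested were lower. Of these, 6 were also past a log2 fold change of -1 (19.0% of all genes tested): Tlr13, Tlr2, Cd14, Tlr1, Tlr7 and Tlr6. No CEBPA-first library reached the lowest CSF3R-only library for any of the 10 genes, a lower position without overlap that 34.5% of all genes tested had. The median log2 fold change of the 10 genes was -1.48, against -0.00446 over all genes tested. The largest fall was 8.46-fold (Tlr13) and the smallest was 1.40-fold (Myd88). In bulk RNA, fewer cells of a type and less RNA per cell cannot be told apart.

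**Figure D1:**
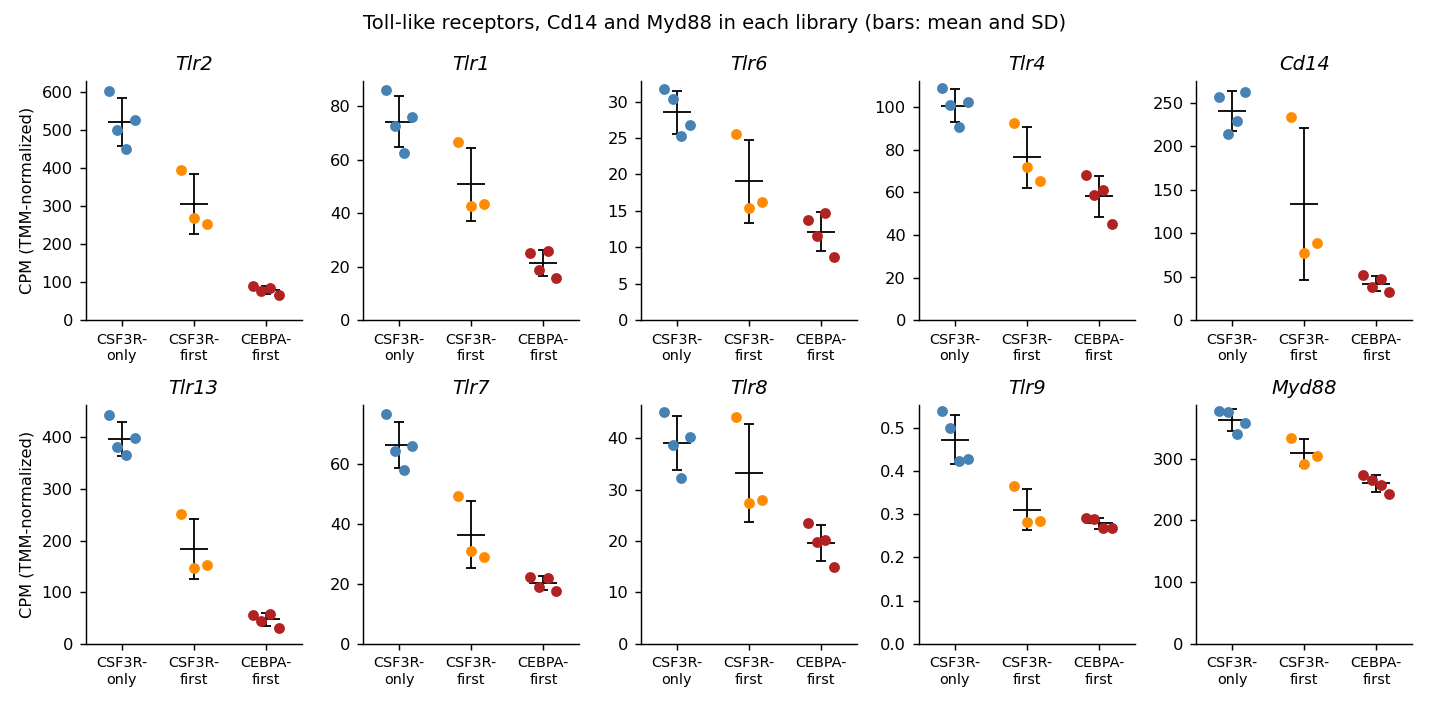
TMM-normalized CPM of each gene (vertical axis, linear, from 0) in the 4 CSF3R-only, 3 CSF3R-first and 4 CEBPA-first libraries, with black bars for the mean and SD. In every panel the CEBPA-first points lie below the CSF3R-only points, and the highest CSF3R-first point is replicate A.

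The start regions of these genes are shown because the members moved in the same direction. RefSeq windows of GRCm38.p6, from 250 bases before to 50 bases after an annotated transcription start, were matched by symbol for 7 of the 10 genes (9 windows, since Tlr1 and Tlr6 had 2 each). The 9 windows did not include Tlr4 and Tlr7, which were not matched, or Cd14, whose chromosome was left out. They were searched on both strands for the letters TTGCNNAA (CEBP), GAGGAA (PU.1) and TTCNNNGAA (STAT) and for the NF-kB motif. Printed below are the windows of the receptors with the largest falls, Tlr2 (chr3:83841559-83841858, minus strand) and Tlr13 (chrX:106143025-106143324, plus strand), and 2 with smaller falls, Tlr8 (chrX:167264280-167264579, minus strand) and Myd88 (chr9:119339969-119340268, minus strand), 5′ to 3′ with the motif matches in capitals.
Tlr2: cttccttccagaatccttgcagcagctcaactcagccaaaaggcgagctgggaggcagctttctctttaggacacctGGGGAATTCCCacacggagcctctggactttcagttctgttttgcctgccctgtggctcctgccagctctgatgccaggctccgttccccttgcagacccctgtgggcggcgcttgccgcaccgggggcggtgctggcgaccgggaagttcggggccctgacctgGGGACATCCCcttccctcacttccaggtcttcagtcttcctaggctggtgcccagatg
Tlr13: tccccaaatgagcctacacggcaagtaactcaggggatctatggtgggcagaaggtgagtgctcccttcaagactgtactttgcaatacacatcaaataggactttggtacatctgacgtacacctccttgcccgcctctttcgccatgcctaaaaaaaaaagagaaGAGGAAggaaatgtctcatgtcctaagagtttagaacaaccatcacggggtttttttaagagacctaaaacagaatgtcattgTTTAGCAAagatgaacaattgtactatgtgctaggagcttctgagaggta
Tlr8: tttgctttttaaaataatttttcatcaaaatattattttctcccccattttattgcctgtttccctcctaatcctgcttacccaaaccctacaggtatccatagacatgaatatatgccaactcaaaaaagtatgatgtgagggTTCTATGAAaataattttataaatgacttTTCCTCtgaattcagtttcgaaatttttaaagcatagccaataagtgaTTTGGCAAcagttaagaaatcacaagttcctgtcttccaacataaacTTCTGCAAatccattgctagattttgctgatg
Myd88: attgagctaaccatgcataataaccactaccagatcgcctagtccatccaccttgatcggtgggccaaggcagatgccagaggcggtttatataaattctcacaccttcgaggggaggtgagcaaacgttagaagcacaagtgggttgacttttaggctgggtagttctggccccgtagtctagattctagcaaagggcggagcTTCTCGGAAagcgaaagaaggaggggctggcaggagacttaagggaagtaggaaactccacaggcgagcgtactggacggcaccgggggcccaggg

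The capitals in the Tlr2 window are 3 NF-kB matches, starting at positions -173, -172 and -8 from the transcription start, of which the first and the second overlap. The Tlr13 window has a PU.1 match at -83 and a CEBP match at position 1. The Tlr8 window has CEBP matches at -29 and 19, a PU.1 match at -77 and a STAT match at -106, and the Myd88 window has a STAT match at -46. Over the 9 windows, 3 held a CEBP match, 4 a PU.1 match, 4 a STAT match and 1 an NF-kB match. Over the 32851 windows of 300 bases outside chromosome 18, the shares were 10.8%, 28.3%, 8.3% and 4.51% in the same order. A match describes letters and is not evidence of a binding site, and the receptors with large and with small falls both held matches.

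Among the surface receptors, Tlr2 and its partners fell by different amounts. Tlr2 (chr3:83836272-83841767, GRCm38, minus strand), the shared subunit of the lipopeptide receptors, was at 603, 502, 451 and 528 CPM in CSF3R-only replicates A to D, 397, 270 and 253 CPM in CSF3R-first replicates A to C, and 90.4, 75.6, 83.2 and 64.8 CPM in CEBPA-first replicates A to D. The 3 groups did not overlap in any pair. Tlr2 was 6.64-fold lower in CEBPA-first than CSF3R-only libraries (log2 fold change -2.73 ± 0.15 SE, edgeR adjusted p = 1.03e-08), a fall that 4.2% of the genes tested matched or exceeded. It was 1.70-fold lower in CSF3R-first than CSF3R-only libraries (log2 fold change -0.77 ± 0.16, edgeR adjusted p = 0.00227) and 3.90-fold lower in CEBPA-first than CSF3R-first libraries (log2 fold change -1.97 ± 0.16, edgeR adjusted p = 1.48e-06).

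Tlr1 and Tlr6, the alternative partners of Tlr2, are neighbours on chromosome 5 (chr5:64924679-64933563 and chr5:64952031-64960097, both minus strand). Their longest shared alignment was 1328 bases at 88.8% identity, and no stretch of at least 100 bases was shared at 97% identity or more. Tlr1 was at 85.9, 72.7, 62.3 and 76.1 CPM in CSF3R-only, 66.5, 42.5 and 43.3 CPM in CSF3R-first and 25.1, 18.7, 25.6 and 15.7 CPM in CEBPA-first. The CEBPA-first libraries lay apart from both other groups, while CSF3R-first replicate A lay within the CSF3R-only range. Tlr1 was 3.49-fold lower in CEBPA-first than CSF3R-only libraries (log2 fold change -1.80 ± 0.18, edgeR adjusted p = 1.34e-06). Tlr6 was at 31.7, 30.4, 25.3 and 26.8 CPM in CSF3R-only, 25.6, 15.4 and 16.1 CPM in CSF3R-first and 13.8, 11.5, 14.7 and 8.63 CPM in CEBPA-first. Its fall in CEBPA-first was 2.35-fold (log2 fold change -1.24 ± 0.18, edgeR adjusted p = 3.91e-05), so these subunits fell in the order Tlr2, Tlr1 and Tlr6 by size. The 95% confidence interval of Tlr2 (-3.06 to -2.40) did not reach those of Tlr1 (-2.19 to -1.42) and Tlr6 (-1.63 to -0.84).

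The lipopolysaccharide receptor and its co-receptor behaved differently in size. Tlr4 (chr4:66827584-66930284, plus strand) was at 109, 101, 90.7 and 103 CPM in CSF3R-only, 92.6, 71.8 and 65.3 CPM in CSF3R-first and 68.1, 58.9, 61.0 and 45.0 CPM in CEBPA-first. CSF3R-first overlapped with each of the other groups. Tlr4 was 1.73-fold lower in CEBPA-first than CSF3R-only libraries (log2 fold change -0.79 ± 0.13, edgeR adjusted p = 8.54e-05), the smallest fall among the surface receptors. Cd14, the lipid-anchored protein that passes lipopolysaccharide to Tlr4, was at 257, 214, 228 and 262 CPM in CSF3R-only, 234, 77.5 and 88.5 CPM in CSF3R-first and 51.3, 38.1, 46.6 and 31.9 CPM in CEBPA-first. CSF3R-first replicate A alone lay in the CSF3R-only range, and the other 2 libraries of that group lay well below it. Cd14 was 5.73-fold lower in CEBPA-first than CSF3R-only libraries (log2 fold change -2.52 ± 0.30, edgeR adjusted p = 5.68e-06), and its interval (-3.16 to -1.88) did not reach that of Tlr4 (-1.07 to -0.52).

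Ly96 (MD-2), the secreted partner without which Tlr4 does not recognise lipopolysaccharide, fell with Cd14 rather than with Tlr4 in size. It was at 21.2, 18.4, 17.3 and 17.8 CPM in CSF3R-only, 12.7, 8.41 and 9.83 CPM in CSF3R-first and 4.83, 3.79, 4.45 and 3.35 CPM in CEBPA-first, with no overlap between any pair of groups. The log2 fold change in CEBPA-first against CSF3R-only was -2.19 ± 0.14 (edgeR adjusted p = 4.35e-08). Per length, as CPM per kilobase of exon (RPKM), the ratio of Tlr4 to Ly96 was 0.95 to 1.06 in CSF3R-only, against 1.22 to 1.57 in CSF3R-first and against 2.47 to 2.86 in CEBPA-first. The RPKM ratio of Cd14 to Tlr4 was 6.80 to 8.19, 3.46 to 8.10 and 2.07 to 2.45 in the same order. The lengths cancel when a ratio is compared between groups.

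Of the endosomal receptors, Tlr13 fell most. Tlr13 (chrX:106143204-106160493, plus strand), a mouse sensor of bacterial ribosomal RNA, was at 443, 381, 365 and 399 CPM in CSF3R-only, 252, 147 and 154 CPM in CSF3R-first and 55.1, 43.3, 58.6 and 30.9 CPM in CEBPA-first. The groups did not overlap in any pair. It was 8.46-fold lower in CEBPA-first than CSF3R-only libraries (log2 fold change -3.08 ± 0.21, edgeR adjusted p = 5.8e-08), and 3.02% of the genes tested fell as far or further. The log2 fold change of Tlr13 was -1.11 ± 0.22 in CSF3R-first against CSF3R-only (edgeR adjusted p = 0.00165) and -1.97 ± 0.21 in CEBPA-first against CSF3R-first (edgeR adjusted p = 1.58e-05).

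Tlr7 and Tlr8, sensors of single-stranded RNA and its breakdown products, are neighbours on the X chromosome (chrX:167304929-167330558 and chrX:167242696-167264329, both minus strand). Tlr7 was at 76.7, 64.4, 58.1 and 66.0 CPM in CSF3R-only, 49.3, 31.0 and 28.8 CPM in CSF3R-first and 22.4, 19.0, 22.0 and 17.5 CPM in CEBPA-first. It did not overlap between any pair of groups, and it was 3.28-fold lower in CEBPA-first than CSF3R-only libraries (log2 fold change -1.72 ± 0.16, edgeR adjusted p = 6.35e-07). Tlr8 was at 45.1, 38.8, 32.4 and 40.2 CPM in CSF3R-only, 44.2, 27.5 and 28.0 CPM in CSF3R-first and 23.5, 19.8, 20.3 and 15.0 CPM in CEBPA-first. CSF3R-first replicate A was close to the highest CSF3R-only library, while every CEBPA-first library lay below both other groups. Tlr8 was 1.99-fold lower in CEBPA-first than CSF3R-only libraries (log2 fold change -0.995 ± 0.167, edgeR adjusted p = 0.000129). The RPKM ratio of Tlr7 to Tlr8 was 1.44 to 1.58 in CSF3R-only, against 0.90 to 0.99 in CSF3R-first and against 0.84 to 1.02 in CEBPA-first, so Tlr7 was the higher of this pair in every CSF3R-only library but in no CSF3R-first library.

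Tlr9 (chr9:106222598-106226883, plus strand), the receptor for unmethylated CpG DNA, was close to the limit of these libraries. It was at 0.54, 0.50, 0.42 and 0.43 CPM in CSF3R-only, 0.37, 0.28 and 0.28 CPM in CSF3R-first and 0.29, 0.29, 0.27 and 0.27 CPM in CEBPA-first. All values were above the level of 3 counts, and the CSF3R-only libraries lay above all others. Tlr9 was 1.68-fold lower in CEBPA-first than CSF3R-only libraries (log2 fold change -0.75 ± 0.22, edgeR adjusted p = 0.00807). Without the filter on low counts this call was lost (log2 fold change -0.68, edgeR adjusted p = 0.0793).

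Myd88 (chr9:119335934-119341411, minus strand), the adaptor through which these receptors signal, changed least. It was at 377, 376, 340 and 358 CPM in CSF3R-only, 334, 291 and 304 CPM in CSF3R-first and 274, 266, 258 and 243 CPM in CEBPA-first, with no overlap between any pair of groups. It was 1.40-fold lower in CEBPA-first than CSF3R-only libraries (log2 fold change -0.48 ± 0.07, edgeR adjusted p = 2e-05), and 31.6% of the genes tested fell as far or further. Of its exon bases, 88.7% lie outside any other gene, and the rest overlap Acaa1a on the other strand. Acaa1a was at 117 ± 9.21, 86.3 ± 17.9 and 62.6 ± 4.21 CPM (SD) in the CSF3R-only, the CSF3R-first and the CEBPA-first group, with a log2 fold change of -0.90 for CEBPA-first against CSF3R-only (edgeR adjusted p = 5.77e-06). Whether strand was used in counting is not given in the sources used here, and the part of shared reads in the Myd88 values was not tested.

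In CSF3R-first against CSF3R-only, in which CEBPA V314VW joined an already active CSF3R T618I, 8 of 10 genes were lower at an adjusted p below 0.05, where 21.1% of all genes tested were lower. Tlr13 alone was past a log2 fold change of -1 (4.53% of all genes tested). For 5 of 10 genes, Tlr2, Tlr7, Tlr9, Tlr13 and Myd88, the groups did not overlap, a lower position that 21.4% of all genes tested had. The log2 fold changes of the other called genes were -0.87 ± 0.17 for Tlr7 (edgeR adjusted p = 0.00156), -0.85 ± 0.31 for Cd14 (0.0396), -0.58 ± 0.19 for Tlr6 (0.0279), -0.55 ± 0.19 for Tlr1 (0.0327), -0.40 ± 0.14 for Tlr4 (0.0328) and -0.23 ± 0.07 for Myd88 (0.0193). Tlr8 was not called (log2 fold change -0.24, 95% confidence interval -0.62 to 0.15, edgeR adjusted p = 0.314), and neither was Tlr9 (-0.60, -1.13 to -0.08, edgeR adjusted p = 0.0606). Without CSF3R-first replicate A, Tlr8 was called as well (log2 fold change -0.49, edgeR adjusted p = 0.017), and the log2 fold changes of Cd14, Tlr13 and Tlr7 were -1.53, -1.40 and -1.15. Several calls were lost when a single library was left out. Without CSF3R-first replicate B, or without replicate C, 3 genes (Tlr2, Tlr7 and Tlr13) were called and 0 were past the fold threshold, with Tlr13 at a log2 fold change of -0.97 and -0.98 respectively. Without CSF3R-only replicate A or B, 4 genes were called (these and Myd88), and without replicate D, 5. Calls in either direction over all genes tested also fell, from 6703 of 15703 with all libraries. Without CSF3R-first replicate B or C they were 4620 of 16100 and 5323 of 15947. Without CSF3R-only replicate A, B or D they were 5590 of 15619, 6589 of 15603 and 5605 of 15478. The log2 fold changes of the genes that lost their calls stayed near those of all libraries without a CSF3R-only library (-0.56 to -0.47 for Tlr1, -0.40 to -0.36 for Tlr4, -0.56 to -0.53 for Tlr6 and -0.91 to -0.81 for Cd14), and Cd14 was at -0.58 and -0.62 without CSF3R-first replicates B and C. The call of Cd14 was also lost without CSF3R-only replicate C or CEBPA-first replicate B, with DESeq2, and, with that of Myd88, when only the compared groups entered the fit. The Myd88 call was also lost without a filter on low counts.

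In CEBPA-first against CSF3R-first, which held both oncogenes in opposite orders, 9 of 10 genes were lower at an adjusted p below 0.05, where 24.3% of all genes tested were lower. Past a log2 fold change of -1 were Tlr13, Tlr2, Cd14 and Tlr1, 4 of 10 genes against 10.3% of all genes tested. The groups did not overlap for 8 of 10 genes (24.8% of all genes tested), with Tlr4 and Tlr9 as the exceptions. Cd14 differed by a log2 fold change of -1.67 ± 0.30 (edgeR adjusted p = 0.000853) and Tlr1 by -1.26 ± 0.19 (0.00022). Smaller differences were those of Tlr7 (-0.85 ± 0.16, edgeR adjusted p = 0.00128), Tlr8 (-0.76 ± 0.18, 0.00403), Tlr6 (-0.65 ± 0.19, 0.0144), Tlr4 (-0.39 ± 0.14, 0.0292) and Myd88 (-0.25 ± 0.07, 0.0107). Tlr9 was not called (-0.15, 95% confidence interval -0.68 to 0.39, edgeR adjusted p = 0.682). Without CSF3R-first replicate A, 6 genes were called: Tlr4 (-0.23, edgeR adjusted p = 0.171), Tlr6 (-0.38, 0.0901) and Myd88 (-0.19, 0.0532) lost their calls, and Cd14 stood at -0.98, Tlr7 at -0.56 and Tlr8 at -0.50, still called. Over all genes tested, 6032 of 16122 were called in either direction without that library, against 7578 of 15703 with all libraries. The Tlr4 call was also lost without CEBPA-first replicate B (-0.40, edgeR adjusted p = 0.0564) or D (-0.29, 0.0628). The comparisons share libraries, since each group enters 2 of them, so their values are given side by side and are not independent of each other.

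**Figure D2:**
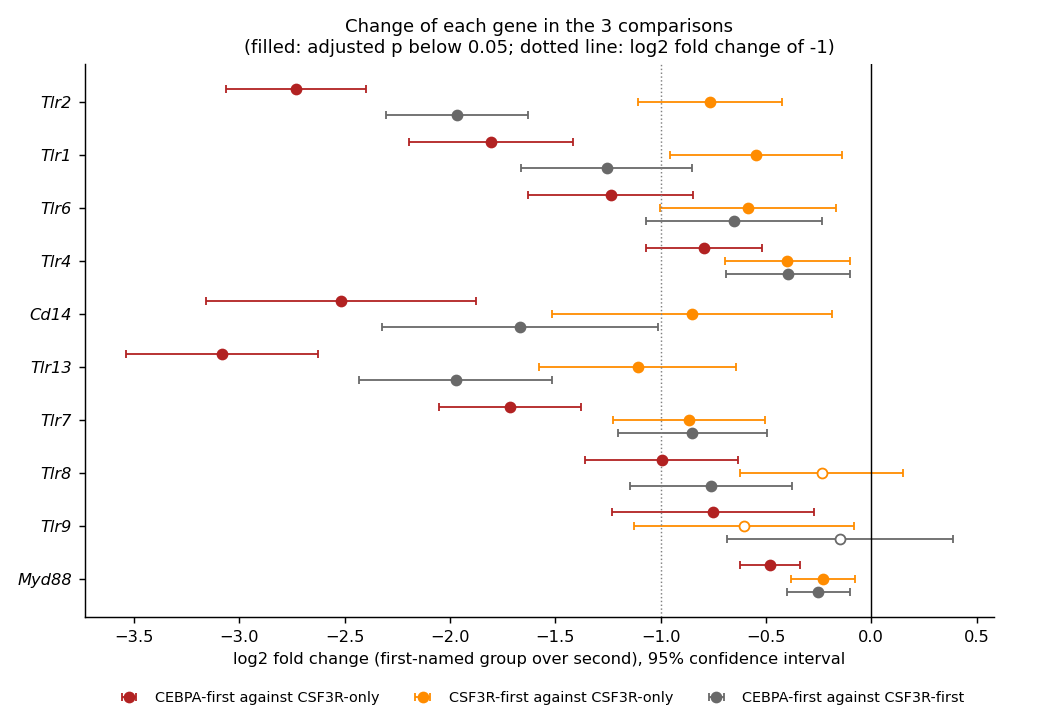
Log2 fold change (horizontal axis) of each gene with its 95% confidence interval in the 3 comparisons, filled where the adjusted p is below 0.05. All intervals of CEBPA-first against CSF3R-only lie below 0, and those of Tlr8 and Tlr9 cross 0 in 1 other comparison each.

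Placed on a log2 CPM scale from 0 (the CSF3R-only mean) to 1 (the CEBPA-first mean), the CSF3R-first mean lay at 0.26 for Tlr8, 0.29 for Tlr2, 0.31 for Tlr1 and 0.37 for Tlr13, and at 0.41 to 0.53 for Cd14, Myd88, Tlr6, Tlr4 and Tlr7. Tlr9 lay at 0.81. That order depended on CSF3R-first replicate A: without it, an alternative chosen after seeing the data, Tlr8 lay at 0.48, above Tlr2 at 0.36, Tlr1 at 0.43 and Tlr13 at 0.45, and Cd14 lay at 0.60. CSF3R-first replicate A was nearer to CSF3R-only than replicates B and C for all 10 genes, at -0.19 to 0.49. For Cd14 the positions of replicates A, B and C were 0.01, 0.64 and 0.57. Replicate A was the highest library of its group for 10 of 10 genes, as it was for 68.1% of the 5753 genes that were lower in CEBPA-first than CSF3R-only libraries. CEBPA-first replicate D was the lowest library of its group for 10 of 10 genes, and for 49.6% of those 5753 genes.

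Per length, with the union of exons as the length, the order of the 10 genes also differed between groups. In CSF3R-only, Tlr2 was highest at 173 ± 21.01 RPKM (SD, n = 4), followed by Myd88 at 141 ± 6.80, Cd14 at 139 ± 13.3 and Tlr13 at 92.3 ± 7.79 RPKM. Myd88 and Cd14 overlapped in range. Then came Tlr1 at 22.2 ± 2.90, Tlr4 at 18.2 ± 1.38 and Tlr7 at 16.2 ± 1.90 RPKM, each overlapping with the next, then Tlr8 at 10.9 ± 1.46, Tlr6 at 7.66 ± 0.80 and Tlr9 at 0.136 ± 0.0164 RPKM. In CSF3R-first, Myd88 was highest at 120 ± 8.56 RPKM (SD, n = 3), and its range overlapped with that of Tlr2 at 102 ± 26.0 RPKM. In CEBPA-first, Myd88 stood alone at 101 ± 5.23 RPKM (SD, n = 4), above Tlr2 at 26.0 ± 3.63 and Cd14 at 24.2 ± 5.0 RPKM, which overlapped. Tlr13 at 10.9 ± 2.92 RPKM and Tlr4 at 10.5 ± 1.74 RPKM overlapped there, whereas in CSF3R-only every Tlr13 value was above every Tlr4 value. Tlr1 followed at 6.36 ± 1.46, Tlr8 at 5.48 ± 0.98 and Tlr7 at 4.95 ± 0.58 RPKM, each overlapping with the next, and then Tlr6 at 3.26 ± 0.73 and Tlr9 at 0.0803 ± 0.00365 RPKM. The top of the order depended on the length used: with the longest coding transcript, an alternative chosen after seeing the data, Myd88 had the highest mean in every group (185 ± 8.94, 158 ± 11.3 and 133 ± 6.87 RPKM), and in CSF3R-only its range overlapped with that of Tlr2.

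The summed RPKM of the 8 receptors was 340 ± 36.9 in CSF3R-only, against 197 ± 53.0 in CSF3R-first and against 67.6 ± 11.7 in CEBPA-first (SD, n = 4, 3 and 4), with no overlap between groups. Tlr2 made up 49.97% to 51.54% of the sum in CSF3R-only, against 51.0% to 53.0% in CSF3R-first and against 36.8% to 41.1% in CEBPA-first. Tlr13 made up 26.5% to 28.3%, 20.3% to 22.7% and 13.7% to 18.2% in the same order. These were the receptors whose share was lower in CEBPA-first than CSF3R-only libraries. The share of Tlr4 was 5.06% to 5.51%, 6.46% to 7.65% and 14.7% to 16.4%, that of Tlr8 was 3.01% to 3.28%, 4.54% to 4.78% and 7.54% to 8.55%, and that of Tlr6 was 2.10% to 2.47%, 2.45% to 2.66% and 4.43% to 5.28%. With the longest transcript in place of all exons as the length, the mean share of Tlr4 was 6.96%, 9.20% and 19.5% and that of Tlr13 was 27.5%, 21.8% and 15.6%, so which of the pair was higher in CEBPA-first depended on the length used. Receptors of endosomes together held 34.6% to 36.1% in CSF3R-only, against 29.3% to 32.2% in CSF3R-first and against 30.1% to 33.0% in CEBPA-first.

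**Figure D3:**
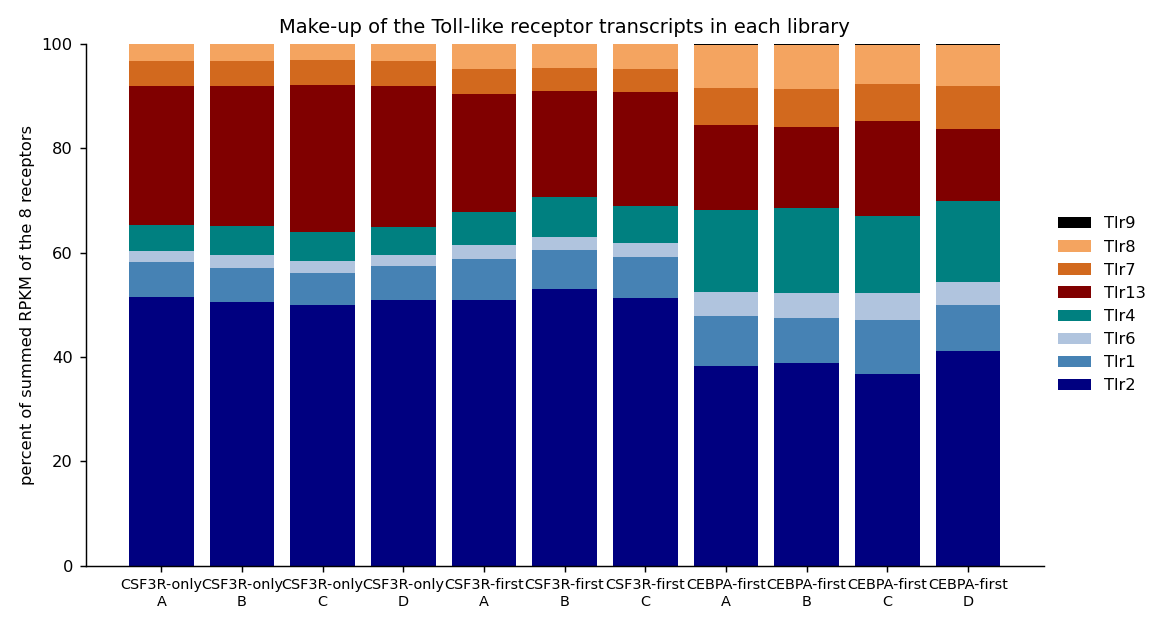
Share of each Toll-like receptor in the summed RPKM of the 8 receptors (vertical axis, percent) in each of the 11 libraries. Libraries of a group have nearly the same make-up, and the Tlr4 band is widest in the 4 CEBPA-first libraries.

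Over the 11 libraries, the genes outside this set whose log2 CPM followed Tlr13 most closely were Fgr, Cd300ld, B430306N03Rik, March1 and Upp1, with Pearson correlations of 0.998 to 0.999. The libraries form 3 groups with different levels, and 1483 of the 9142 genes compared had a correlation above 0.95, so this likeness is common.

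The rest of the pathway was read from 7 lists of 90 genes, of which 86 were tested. In CEBPA-first against CSF3R-only, 61 were lower and 10 higher at an adjusted p below 0.05 (36.6% and 35.4% of all genes tested), with a median log2 fold change of -0.66. In CSF3R-first against CSF3R-only, 47 were lower and 1 higher (21.1% and 21.6%), and in CEBPA-first against CSF3R-first, 42 were lower and 7 higher (24.3% and 24.0%). With single libraries left out, the 48 calls in CSF3R-first against CSF3R-only became 31 to 51. Of the other Toll-like receptors, 3 of 4 were tested and 2 were lower in CEBPA-first than CSF3R-only libraries, among them Tlr5, the flagellin receptor (5.51 and 3.01 CPM in CSF3R-only and CEBPA-first, log2 fold change -0.88 ± 0.18, edgeR adjusted p = 0.000617).

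Co-receptors, chaperones and endosomal factors of the receptors moved in both directions. In CEBPA-first against CSF3R-only, 9 of 15 were lower and 3 higher. Slc15a3, an endosomal transporter, fell from 18.2 to 3.05 CPM (group means, log2 fold change -2.58 ± 0.24, edgeR adjusted p = 6.72e-07). Unc93b1, the chaperone that takes nucleic acid receptors to endosomes, was at 497, 467, 391 and 447 CPM in CSF3R-only, 433, 303 and 296 CPM in CSF3R-first and 261, 232, 260 and 210 CPM in CEBPA-first. Its log2 fold change was -0.90 ± 0.12 (edgeR adjusted p = 2.1e-05) in CEBPA-first against CSF3R-only. Hsp90b1 (gp96), the chaperone that folds most Toll-like receptors, rose instead, from 828 to 1747 CPM (group means, log2 fold change 1.08 ± 0.08, edgeR adjusted p = 8.62e-08), and was also higher in CSF3R-first than CSF3R-only libraries (0.52 ± 0.08, edgeR adjusted p = 0.000468).

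Ly86 (MD-1), a relative of Ly96 that binds the receptor-like protein Cd180, also rose. It was at 1.51, 2.60, 2.58 and 2.41 CPM in CSF3R-only, 3.53, 2.54 and 3.54 CPM in CSF3R-first and 17.1, 13.04, 16.6 and 12.6 CPM in CEBPA-first. Only the CEBPA-first libraries stood apart. Ly86 was 6.49-fold higher in CEBPA-first than CSF3R-only libraries (log2 fold change 2.70 ± 0.18, edgeR adjusted p = 4.78e-08), while in CSF3R-first against CSF3R-only it was not called (0.49 ± 0.20, edgeR adjusted p = 0.0596), although it was with DESeq2, without CSF3R-first replicate B (0.63) and without a filter on low counts (0.54, edgeR adjusted p = 0.0253, the lowest over the alternatives).

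Among the signalling genes, changes were uneven. Of 20 adaptors, kinases and ubiquitin ligases tested, which include the adaptors Tirap, Ticam1 and Ticam2 besides genes that act downstream of Myd88, 11 were lower and 4 higher in CEBPA-first than CSF3R-only libraries, with a median log2 fold change of -0.31. Irak4, the first kinase recruited by Myd88, was at 82.2 to 88.9 CPM in CSF3R-only, against 61.5 to 75.7 CPM in CSF3R-first and against 46.6 to 53.2 CPM in CEBPA-first (log2 fold change -0.75 ± 0.07 in CEBPA-first against CSF3R-only, edgeR adjusted p = 8.06e-07). Irak2 (-1.67 ± 0.14, edgeR adjusted p = 3.08e-07) and Ikbke, a kinase of the IKK family (-2.42 ± 0.14, 1.33e-08), fell most. Traf6, the ubiquitin ligase of this route, was slightly higher (0.24 ± 0.08, edgeR adjusted p = 0.0198), with overlapping groups at 58.9 to 70.6 and 69.8 to 89.0 CPM. Its call was lost without CSF3R-only replicate B (0.22, edgeR adjusted p = 0.0532) or C (0.19, 0.0701) and without CEBPA-first replicate B (0.17, 0.0705). Map3k7 (TAK1) was at a log2 fold change of 0.42 ± 0.05 (edgeR adjusted p = 1.13e-05) and Ube2n at 0.26 ± 0.05 (4e-04).

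Of the 10 NF-kB and IRF factors, 7 were lower and 3 were not called in CEBPA-first against CSF3R-only. Relb, a subunit of the alternative NF-kB complex, was at 78.3, 62.9, 65.5 and 69.5 CPM in CSF3R-only, 46.1, 32.1 and 32.6 CPM in CSF3R-first and 10.0, 8.49, 8.87 and 6.91 CPM in CEBPA-first. No pair of groups overlapped, and the log2 fold change was -3.01 ± 0.14 (edgeR adjusted p = 2.33e-09). Its partner Nfkb2 fell by 1.82 on the log2 scale (edgeR adjusted p = 9.23e-09). Of 15 negative regulators, 13 were lower and 1 higher: the phosphatase gene Dusp1 (-2.79 ± 0.23, edgeR adjusted p = 2.3e-07) and the NF-kB inhibitor gene Nfkbie (-2.54 ± 0.13, 4.27e-09) fell most, and Socs1 rose (0.50 ± 0.13, 0.00354). Of 7 genes of the IL-1 receptor family, which holds receptors that signal through Myd88 as well as the decoy receptor Il1r2, 6 were lower and 1 was not called, and 3 were past the fold threshold (19.0% of all genes tested): Il1r2 (-1.23 ± 0.21, edgeR adjusted p = 0.00014), Il1rl2 (-1.02 ± 0.14, 2.71e-05) and Il18r1 (-1.01 ± 0.16, 8.18e-05). Il1rl2 and Il18r1 lay at that threshold and moved inside it, to -0.93, under alternatives.

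Known target genes of the pathway covered the widest range. Of 16 tested, 13 were lower and 2 higher in CEBPA-first than CSF3R-only libraries, with a median log2 fold change of -2.16. Il1b, an inflammatory cytokine, was at 232, 184, 178 and 188 CPM in CSF3R-only, 120, 55.3 and 62.9 CPM in CSF3R-first and 7.001, 5.08, 7.03 and 7.20 CPM in CEBPA-first, 29.7-fold lower in CEBPA-first than CSF3R-only libraries (log2 fold change -4.89 ± 0.24, edgeR adjusted p = 3.39e-09). Acod1, the enzyme that makes itaconate, was at 210 to 259, 55.8 to 112 and 7.51 to 9.01 CPM in the CSF3R-only, the CSF3R-first and the CEBPA-first group (log2 fold change -4.84 ± 0.19, edgeR adjusted p = 6.79e-10). The cytokine genes Il6 and Il10 went the other way. Il6 was at 8.12 to 17.3 CPM in CSF3R-only, against 8.50 to 20.1 CPM in CSF3R-first and against 24.4 to 40.3 CPM in CEBPA-first (log2 fold change 1.29 ± 0.26, edgeR adjusted p = 0.000572), and Il10 was at 1.23 to 2.44, 1.10 to 1.63 and 2.93 to 4.98 CPM (1.10 ± 0.23, edgeR adjusted p = 0.000759).

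**Figure D4:**
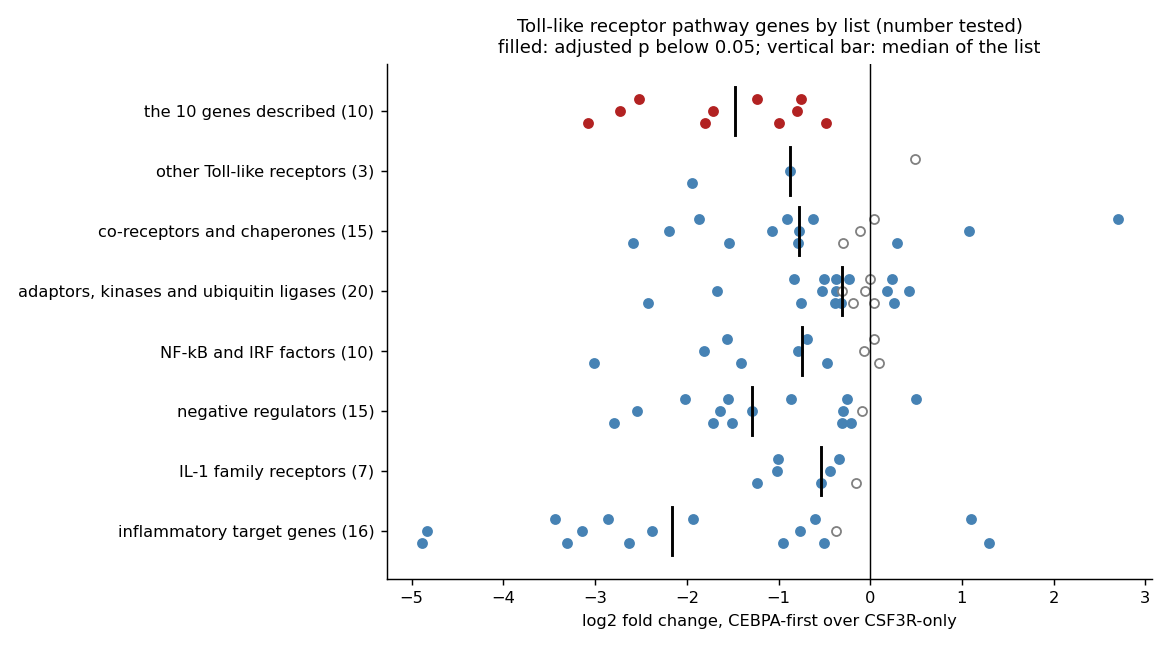
Log2 fold change of CEBPA-first over CSF3R-only (horizontal axis) for the 10 genes and for the 7 pathway lists, filled where the adjusted p is below 0.05, with a bar at each list's median. The target genes range from -4.89 (Il1b) to 1.29 (Il6), and the outermost point on the right is Ly86.

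Markers of mature myeloid cells moved with the 10 genes. In CEBPA-first against CSF3R-only, the comparison of the counts below, 36.6% of all genes tested were lower and 35.4% higher. Of 11 neutrophil markers, 11 were lower in CEBPA-first than CSF3R-only libraries and their summed level was 26450 to 32500 CPM in CSF3R-only, against 14500 to 25260 CPM in CSF3R-first and against 6432 to 8563 CPM in CEBPA-first. Of 13 monocyte and macrophage markers, 11 were lower and 2 higher, with sums of 19500 to 25720, 9793 to 18390 and 5857 to 8529 CPM. Lyz2, which neutrophils also express, made up most of the sum in CSF3R-only (17220 ± 2400, 8129 ± 3356 and 2316 ± 462.5 CPM in the 3 groups). The monocyte markers that rose were F13a1 (2577 ± 125.5, 3125 ± 708 and 4007 ± 693.5 CPM) and Ly6c2 (233.5 ± 26.2, 251 ± 63.2 and 291 ± 28.7 CPM). The defining marker Csf1r was at 1126 ± 161, 590 ± 224 and 223 ± 37.2 CPM (SD, n = 4, 3 and 4), and Ly6g was at 45.8 ± 3.40, 17.3 ± 6.78 and 3.65 ± 0.89 CPM. None of these markers was at 0 in any group, and Camp alone had a mean below 1 CPM (in CEBPA-first). CSF3R-first replicate A was the highest library of its group in both sums, as it was for the 10 genes. Of 6 megakaryocyte markers, 6 were lower (670.5 to 908.2, 251.1 to 445.7 and 103.8 to 151.7 CPM in sum), as were 4 of 5 eosinophil markers tested (226.2 to 337.1, 56.6 to 129.1 and 28.8 to 35.2 CPM). The part of these cell types in the falls of the receptors was not tested.

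The other lists were mixed, and their counts stand beside the same shares of all genes tested (35.4% higher and 36.6% lower). Of 9 stem and progenitor markers, 7 were higher and 2 lower in CEBPA-first, with sums of 2644 to 3288, 4034 to 4577 and 5164 to 5562 CPM. Most of the sum came from the azurophil granule genes Mpo (1485 ± 116, 2301 ± 263 and 2737 ± 176 CPM), Elane (509.8 ± 53.1, 797 ± 82.3 and 1233 ± 101 CPM) and Prtn3 (454 ± 47.6, 998 ± 74.6 and 1292 ± 42.9 CPM), which rose. The transcription factor genes Mecom (0.17 ± 0.04, 3.38 ± 1.04 and 15.4 ± 1.86 CPM) and Hlf (2.92 ± 0.51, 3.06 ± 0.39 and 14.0 ± 3.35 CPM) were also among the 7 that were higher. The markers that fell were the surface antigen genes Cd34 (88.8 ± 11.4, 44.1 ± 15.04 and 17.9 ± 1.495 CPM) and Ly6a (402 ± 91.5, 209 ± 26.03 and 63.2 ± 11.7 CPM). Kit was at 27.6 ± 3.33, 28.7 ± 4.69 and 34.8 ± 4.81 CPM. The 10 dendritic cell markers summed to 77.8 to 85.6, 94.1 to 100.7 and 122.8 to 123.9 CPM, mostly from Tcf4 (34.8 ± 0.81, 49.98 ± 2.56 and 73.4 ± 1.73 CPM) and Bst2 (29.9 ± 4.04, 33.8 ± 2.51 and 41.01 ± 1.38 CPM). Of the 6 tested, 3 were higher and 2 lower, and the lower ones were Itgax (9.88 ± 1.94, 7.06 ± 2.71 and 1.595 ± 0.19 CPM) and Zbtb46 (2.42 ± 0.91, 1.90 ± 0.93 and 0.47 ± 0.09 CPM). Summed levels were 386.0 to 531.8, 324.9 to 585.3 and 436.8 to 551.9 CPM for 6 erythroid markers and 1679 to 2610, 1078 to 1334 and 1229 to 1661 CPM for 8 mast cell and basophil markers. The 8 B cell markers summed to 3.72 to 4.57, 3.46 to 4.42 and 6.24 to 7.53 CPM, mostly from Cd79b (3.42 ± 0.59, 3.40 ± 0.42 and 6.06 ± 0.48 CPM), and the other 7 were below 1 CPM in the mean of every group. The 8 T and NK cell markers summed to 76.6 to 134.5, 44.3 to 73.5 and 43.7 to 59.4 CPM. Of these, 7 were below 1 CPM and Cd3e, Cd8a and Ncr1 were at 0 in all groups.

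**Figure D5:**
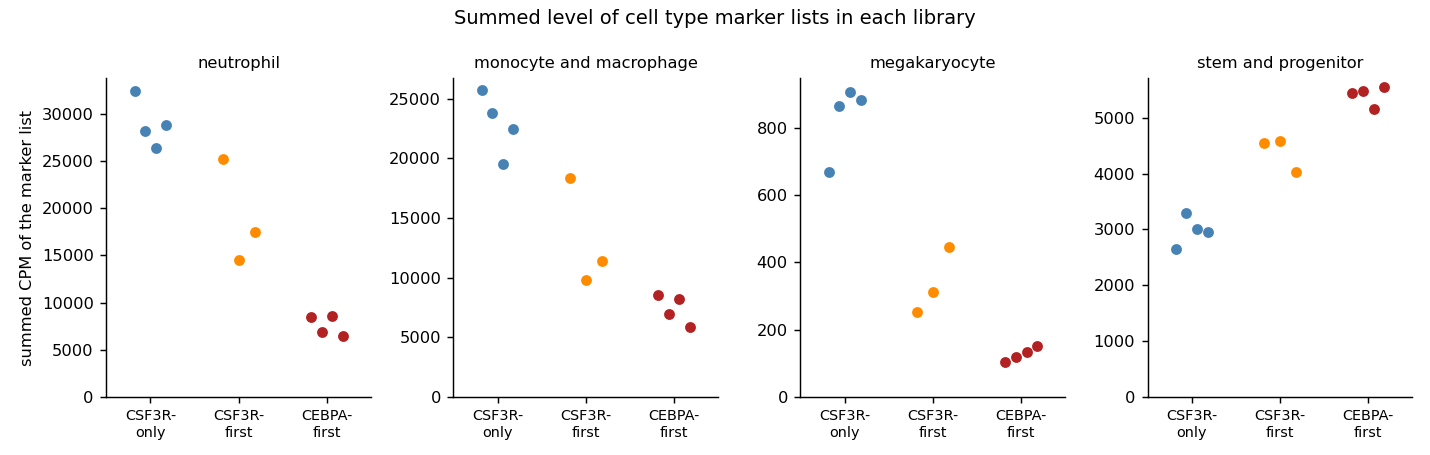
Summed CPM of 4 marker lists (vertical axis, linear, from 0) in each library. The neutrophil, monocyte and macrophage, and megakaryocyte sums are lowest in the 4 CEBPA-first libraries, and the stem and progenitor sum, which is mostly Mpo, Elane and Prtn3, is highest there.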

How the data were processed

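RNA-seq was done on mouse bone marrow cells sorted as lineage-negative and then cultured, in 3 groups (n = 4, 3 and 4). The authors prepared libraries with a SMARTer low-input kit, sequenced single reads on a HiSeq 2500, trimmed them with Trimmomatic, aligned them with STAR (mm10, per the submitters' processing notes) and deposited raw counts per gene. The counting tool, annotation and strand setting are not given in the sources used here. Of 51912 genes, 23409 had no count, and 279 identifiers without a symbol held at most 0.0279% of a library's counts.

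Analysis used R 4.3.3 with edgeR 4.0.16 (TMM, filterByExpr, one quasi-likelihood fit of the 3 groups without covariates, Benjamini-Hochberg adjustment over 15703 genes) and DESeq2 1.42.0 as an alternative. A gene was called at an adjusted p of 0.05, with a log2 fold change of 1 as a stricter threshold. Log2 CPM used a prior count of 2, and group overlap was read from it. RPKM used union exon lengths of GENCODE M21. Near-identical stretches were searched with BLAST 2.17.0. The fit was tested on simulated data.

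All 10 genes are named. Of each pathway list, at most 2 genes with the largest rise and 2 with the largest fall in a comparison are named (adjusted p under 0.05, average log2 CPM 1 or more), besides Ly96, Unc93b1, Irak4 and Traf6. Likeness was read over genes whose average log2 CPM was 3 or more. The members and lists were chosen with earlier results of these data known. Alternatives covered the test, normalization, filters, samples in the fit, prior count, gene length, a replicate block and each library left out, and 2 of them (the length behind the RPKM order and the CSF3R-first positions) were chosen after seeing the data.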

Additional observations from a re-analysis of the deposited data

Results flagged for a closer look

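Within groups of 4 libraries, 76 sets of values (the 10 genes and the named pathway genes in CSF3R-only and CEBPA-first) were searched for a library far from the others, which chance gives in about 1 of 20 sets, or 3.8 here. No value of the 10 genes stood apart in this way, and 4 values of pathway genes did. Nfkb2 was at 40.6 CPM in CEBPA-first replicate D, against 46.7 to 47.7 CPM in the other 3 libraries. Il1b was at 5.08 CPM in CEBPA-first replicate B, against 7.001 to 7.20 CPM. Il1r1 was at 10.7 CPM in CSF3R-only replicate A, against 14.1 to 14.5 CPM, and at 7.70 CPM in CEBPA-first replicate D, against 10.6 to 10.7 CPM. Groups of 3 were not searched, so CSF3R-first replicate A does not enter these counts.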

How the results depend on the processing

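Of 540 values of the 10 genes under alternatives, 505 kept their direction and their side of the threshold, 33 kept their direction and lost the call, 2 gained it and 0 reversed. The 540 include fits without a library of the group not compared. Such a fit acts on the comparison only through the shared filter, normalization and spread, so little change could come from it. In CEBPA-first against CSF3R-only, 9 to 10 of the 10 genes were called under every alternative run, and only Tlr9 lost its call (without the filter on low counts). In CSF3R-first against CSF3R-only, the 8 calls became 3 to 9 and the 1 past the fold threshold became 0 to 3 with single libraries left out, and the 48 pathway calls became 31 to 51. The 31 was without CSF3R-first replicate B. Over all genes tested, the 6703 calls of this comparison became 4620 to 7499 with single libraries left out. Cd14 lost its call there with DESeq2 (log2 fold change -0.85, adjusted p = 0.0667) and with the compared groups alone (-0.84, 0.0708), and Myd88 did so with the compared groups alone (-0.22, 0.0524) and without the filter on low counts (-0.18, 0.12). Tlr9 was called there when at least 10 counts were required in every sample (-0.62, 0.0278). The causes were not tested.

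The replicate letters are shared by the groups, but the labels do not say what they mark. Deviations of same-letter libraries correlated at -0.11 to 0.36, above 0.1 in 7 of 10 pairs, and 7 of 10 correlated best with their own letter, so pairing is not established. With a replicate block, 10, 8 and 9 of the 10 genes were called in CEBPA-first against CSF3R-only, CSF3R-first against CSF3R-only and CEBPA-first against CSF3R-first, and past the fold threshold were 2 in place of 1 (Tlr13 and Cd14) in CSF3R-first against CSF3R-only and 7 in place of 6 (with Tlr8 at -1.003) in CEBPA-first against CSF3R-only.

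With 3 or 4 libraries a group, calls near the threshold changed with single libraries. RPKM levels depend on the gene model, as the share of Tlr4 shows.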
